A study of Homo sapiens with 6 samples.

Results

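The genes described here are 37 members of the p53 pathway, most of them direct targets that p53 switches on, found in the count table of TC71 cells by their gene symbol. Each symbol matched 1 of the 60676 rows. TC71 is a Ewing sarcoma cell line, and the study grew it as stable polyclonal lines that carry a doxycycline (Dox)-inducible lentiviral shRNA. In the shEHD1+Dox group the shRNA was directed against EHD1, a regulator of endocytic traffic, and in the shNTC+Dox group it was a non-targeting control. Both groups received Dox at 0.5 µg/ml for 3 days, and each holds 3 RNA-seq libraries. Both were therefore exposed to the lentiviral vector, the drug and a processed hairpin RNA. Neither the labels nor the methods say which of the EHD1 shRNAs was sequenced or whether the replicates were separate cultures, so p-values measure the spread between these libraries. In bulk RNA, a change in the share of cells that express a gene and a change of its level per cell cannot be told apart.

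The transcription factor p53 is stabilized by DNA damage and other stresses, when its inhibitors MDM2 and MDM4 lose their hold on it. It then binds response elements near its target genes and raises products that halt the cell cycle (CDKN1A, which encodes p21), trigger apoptosis (BAX, BBC3, PMAIP1, FAS), repair DNA (XPC, DDB2) and restore redox and nutrient balance (the sestrins, TIGAR). MDM2 is itself a target, which closes a negative feedback loop. Many of these genes also answer to other factors, such as ATF4 in the integrated stress response. As background not measured here, TC71 is known to lack CDKN2A, the locus of the MDM2 antagonist ARF.

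Libraries held 22711235 to 30582187 counts. Levels are in CPM, counts per 1000000 after TMM scaling of the library sizes, and adjusted p-values are those of edgeR after Benjamini-Hochberg adjustment over all genes tested. EHD1 was at 26.4 to 28.0 CPM in the control libraries and at 7.15 to 9.37 CPM in the knockdown libraries, or 29.6% of control, which matches the labels. The 12 Ewing sarcoma markers checked, among them CD99 and NR0B1, were all detected, at a summed 5112 to 5176 CPM in shNTC+Dox and 5037 to 5293 CPM in shEHD1+Dox. Most of the sum came from JAK1 and CCND1, at a mean of 1429 and 1381 CPM in shNTC+Dox. GLI1 and NKX2-2 were the lowest, at 11.5 and 15.1 CPM. Of these 12, 1 was higher (CD99) and 2 were lower (STEAP1 and NPY1R) at an adjusted p under 0.05. Of 12 markers of leukocytes, endothelium, epithelium, fibroblasts and hepatocytes, 10 had at most 11 counts in any library and 4 had 0 in all of them. The summed CPM of these 12 was 19.6 to 27.6 in shNTC+Dox and 22.1 to 24.9 in shEHD1+Dox, nearly all of it from COL1A1 and DCN, and DCN was lower in shEHD1+Dox (log2 fold change -1.01, adjusted p = 0.00779). Their part in the results below was not tested. One library stood apart within its group: shNTC+Dox replicate 3 gave the lowest or the highest of the 3 control values for 30 of the 35 members tested (85.7%) and for 83.1% of all genes tested. For members whose call it changed, or that did not pass and moved by more than 1.5 times without it, the value without it is given beside the result or, for genes near 0, within a range at the end.

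The p53 target genes did not move together. Of the 37 members, 35 had enough counts to be tested, of which 8 were higher and 3 were lower after knockdown (adjusted p under 0.05, edgeR's quasi-likelihood test over 16785 genes). The genes that rose were GDF15, PLK2, SESN2, BBC3, GADD45A, ZMAT3, RRM2B and SESN1, and those that fell were MDM4, APAF1 and PERP. The other 24 tested members did not pass, among them CDKN1A, MDM2, BAX, FAS, PMAIP1 and CCNG1. Of these, CDKN1A and CCNG1 passed by the Wald test of DESeq2. EDA2R and SPATA18 had 0 counts in all 6 libraries, where 3 counts in a library is the upper limit that a count of 0 allows.

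Read against the whole table, the 8 members that rose are 22.9% of the 35, where 8.59% of all genes tested rose. The 3 that fell are 8.57%, where 8.75% of all genes fell. At the same adjusted p, a rise of at least 2-fold was found for GDF15, PLK2, SESN2 and BBC3, where 1.08% of all genes tested rose by as much, and no member fell by 2-fold, where 1.74% of all genes did. Among the 35 members the median log2 fold change was 0.00, as it was over all genes tested, while the median size of the change regardless of sign was 0.31 for the members and 0.23 over all genes. Libraries of the 2 groups did not overlap for 16 of the 35 members (45.7%), against 39.3% of all genes. The genes were listed as known p53 targets and tested as single rows. Members and the lists below were chosen with earlier results of these data known. These shares, and those of the lists below, therefore only describe the lists. GDF15 entered the test only through its shEHD1+Dox libraries, since fewer than 10 counts were found in each control library.

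**Figure D1:**
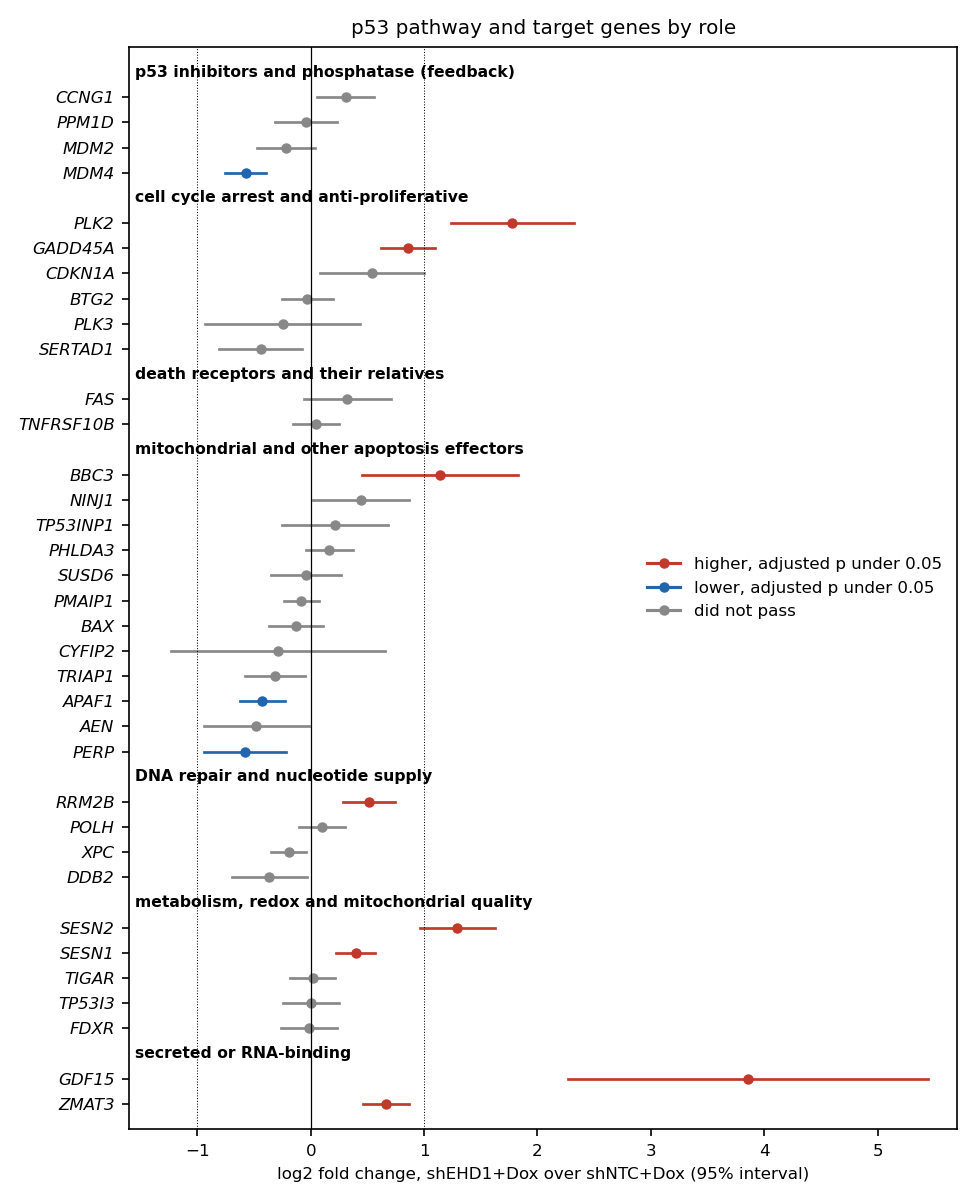
Log2 fold change (shEHD1+Dox over shNTC+Dox, x axis) of the 35 tested members, grouped by role, with the 95% interval of the fit as a bar and dotted lines at a 2-fold change. GDF15, PLK2, SESN2 and BBC3 lie beyond the dotted line on the right, none lies beyond that on the left, and 24 grey genes did not pass an adjusted p of 0.05.

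The members differ in whether a match to the p53 response element was found near their start. The element consists of 2 adjoining stretches of 10 bases. The consensus was searched on both strands, within 2500 bases of the start of each gene's canonical transcript, with the central 4 bases of each stretch fixed (a C, then A or T, then A or T, then a G) and up to 2 mismatches elsewhere. Elements with a gap between the stretches, with other central bases or farther from that start were not searched. A gene without a match, such as MDM2, BAX or BBC3, may therefore still hold an element. A match was found for 14 of the 37 members (37.8%) and for 452 of 20033 protein-coding genes (2.26%). Of the 8 members that rose, 5 held one (GDF15, PLK2, GADD45A, ZMAT3 and RRM2B). So did 7 of the 24 that did not pass and both undetected members, while none of the 3 that fell did. Only PLK2 and ZMAT3 held a match with 0 mismatches, which 13 protein-coding genes have in all. The sequences below are those of 4 genes that rose and of CDKN1A and FAS, which did not pass, printed on the strand of the gene with the fixed central bases in capitals.
PLK2 element: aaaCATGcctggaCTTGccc
ZMAT3 element: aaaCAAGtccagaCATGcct
GADD45A element: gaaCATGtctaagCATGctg
GDF15 element: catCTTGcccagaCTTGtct
CDKN1A element: gaaCATGtcccaaCATGttg
FAS element: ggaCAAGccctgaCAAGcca

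In hg38, the PLK2 element lies upstream of the gene at chr5:58462274-58462293 (minus strand), at -2198 bases from the start, where a minus sign means upstream. The ZMAT3 element is intronic, at chr3:179070188-179070207 (minus strand), and so is that of GADD45A, at chr1:67686775-67686794 (plus strand), 1583 bases after the start and with 1 mismatch. The GDF15 element lies at -841 bases from the start, at chr19:18385308-18385327 (plus strand), with 2 mismatches. CDKN1A holds its match at -2256 bases, at chr6:36676449-36676468 (plus strand), and FAS in an intron at chr10:88991309-88991328 (plus strand), each with 2 mismatches. Elements like these were thus found beside genes that rose and beside genes that did not pass. A match in the reference genome is a description of the sequence, and binding of p53 was not measured.

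**Figure D2:**
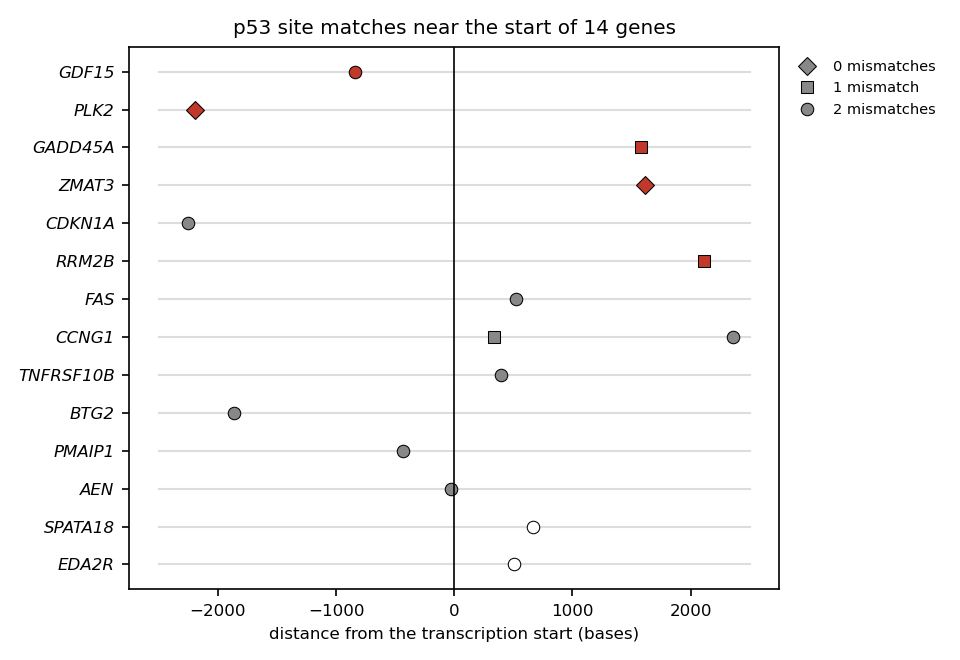
Distance in bases of each p53 element match from the transcription start (x axis, upstream to the left) for the 14 members that hold one, ordered from the highest log2 fold change at the top. Red marks the 5 members that rose, grey those that did not pass and white the 2 with no counts, and diamonds, squares and circles mark 0, 1 and 2 mismatches.

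Among the inhibitors that hold p53 in check, MDM4 fell. MDM4 binds p53 and blocks its activation domain. It was at 60.04, 57.1 and 66.5 CPM in shNTC+Dox replicates 1, 2 and 3 and at 42.7, 39.1 and 41.5 CPM in shEHD1+Dox replicates 1, 2 and 3. The groups stood well apart (log2 fold change -0.57, standard error of the fit, SE, 0.08, adjusted p = 0.00253), and 67.1% of the control level remained. MDM2, the ubiquitin ligase that sends p53 to the proteasome, was at 119, 120 and 152 CPM in the controls and at 104, 125 and 107 CPM in shEHD1+Dox. The groups overlapped, and the log2 fold change of -0.22 (95% interval -0.47 to 0.04, adjusted p = 0.222) did not pass. Without shNTC+Dox replicate 3, its highest library, MDM2 was at -0.09 (adjusted p = 0.468). PPM1D, a phosphatase that switches the damage response off, was at 22.1 to 30.6 CPM in the controls and 24.1 to 26.7 CPM in shEHD1+Dox. CCNG1, cyclin G, was the most abundant member per length and lay higher in every shEHD1+Dox library, at 229 to 257 CPM against 167 to 225 CPM, but its log2 fold change of 0.31 did not pass (adjusted p = 0.0876, and 0.0392 by the Wald test of DESeq2), and was 0.19 without shNTC+Dox replicate 3 (adjusted p = 0.0839).

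CDKN1A, the cyclin-dependent kinase inhibitor through which p53 halts the cell cycle, was at 15.84, 13.3 and 9.0 CPM in shNTC+Dox and at 15.77, 21.01 and 18.9 CPM in shEHD1+Dox. The lowest shEHD1+Dox library lay just under the highest control, and shNTC+Dox replicate 3 was the lowest of all. The log2 fold change was 0.54 (SE 0.20, 95% interval 0.08 to 1.00) and did not pass in edgeR (adjusted p = 0.0999), while DESeq2 gave an adjusted p of 0.0452. Without shNTC+Dox replicate 3 the log2 fold change was 0.35 (edgeR adjusted p = 0.105). Of the exon bases of CDKN1A, 4.87% are shared with DINOL, a long non-coding RNA on the opposite strand, and the library kit does not keep the strand.

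Other growth-restraining members rose more clearly. PLK2, a polo-like kinase that acts early in G1 and in the stress response, went from 3.31, 2.49 and 2.42 CPM to 7.90, 12.6 and 7.75 CPM. Every shEHD1+Dox library was above every control, and the log2 fold change was 1.78 (SE 0.24, adjusted p = 0.00208), a 3.43-fold rise. GADD45A, a stress-inducible protein that restrains CDK1 and binds PCNA, was at 9.92, 9.32 and 10.4 CPM in shNTC+Dox and at 17.2, 18.1 and 18.4 CPM in shEHD1+Dox. Its replicates were close and its groups far apart, with a log2 fold change of 0.86 (SE 0.10, adjusted p = 0.00126). BTG2, an anti-proliferative adaptor of mRNA deadenylation, did not pass, at 27.5 to 32.8 CPM in the controls and 28.4 to 32.9 CPM in shEHD1+Dox (95% interval of the log2 fold change -0.25 to 0.19). PLK3, at 2.96 to 5.96 CPM in the controls and 2.74 to 4.99 CPM in shEHD1+Dox, had a log2 fold change of -0.25 and a wide interval from -0.93 to 0.43, and was at -0.48 without shNTC+Dox replicate 3 (adjusted p = 0.194). SERTAD1, a CDK4-binding transcriptional cofactor, lay lower in every shEHD1+Dox library with a log2 fold change of -0.44 that did not pass (adjusted p = 0.0918).

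**Figure D3:**
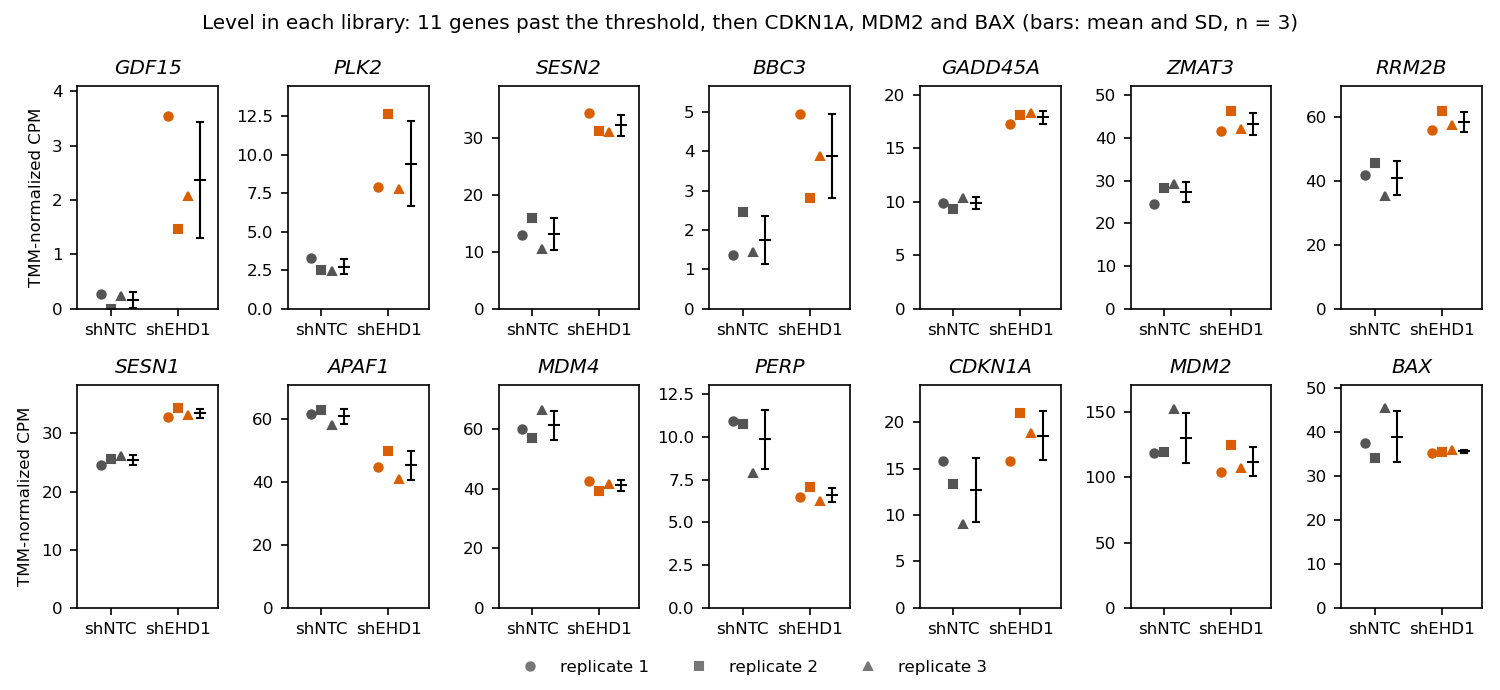
TMM-normalized CPM (y axis, from 0) in each of the 3 shNTC+Dox (grey) and 3 shEHD1+Dox (orange) libraries for the 11 members past the threshold and for CDKN1A, MDM2 and BAX, with mean and SD as bars. The groups are apart in the first 11 panels and overlap in the last 3.

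The death receptors did not pass. FAS, the receptor of FAS ligand, was at 12.9, 8.45 and 8.82 CPM in shNTC+Dox and at 12.5, 13.0 and 12.3 CPM in shEHD1+Dox, so 1 control lay within the range of the other group. Its log2 fold change was 0.32 (adjusted p = 0.223), and 0.55 without shNTC+Dox replicate 1, when it passed (adjusted p = 0.0426). TNFRSF10B, a receptor of the death ligand TRAIL, was at 82.4 to 102 CPM in the controls and 88.9 to 99.4 CPM in shEHD1+Dox, with a log2 fold change of 0.05 (95% interval -0.16 to 0.25).

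Of the 12 apoptosis-linked members, 1 rose (8.33%, against 8.59% of all genes) and 2 fell (16.7%, against 8.75%). BBC3 encodes PUMA, which frees BAX and BAK from their BCL2-type guardians. It was low, with counts of 36, 68 and 32 in shNTC+Dox and of 141, 69 and 120 in shEHD1+Dox. In CPM these are 1.37, 2.46 and 1.43 against 4.95, 2.82 and 3.88, so that the nearest libraries of the groups were close. The log2 fold change was 1.14 (SE 0.30, adjusted p = 0.0335), and the call was lost without shNTC+Dox replicate 1, shEHD1+Dox replicate 1 or shEHD1+Dox replicate 3 (adjusted p = 0.102, 0.133 and 0.101). APAF1, the scaffold of the apoptosome that activates caspase-9, fell from 61.4, 62.6 and 58.0 CPM to 44.7, 49.8 and 40.9 CPM. The groups did not overlap, and the log2 fold change was -0.43 (SE 0.09, adjusted p = 0.0118), and the call was narrowly lost without shEHD1+Dox replicate 1 (adjusted p = 0.0565) or replicate 3 (0.0530). ANKS1B, on the opposite strand, shares 9.67% of the exon bases of APAF1. PERP, a membrane protein of desmosomes that p53 induces in apoptosis, was at 10.9, 10.8 and 7.88 CPM in shNTC+Dox and at 6.497, 7.07 and 6.24 CPM in shEHD1+Dox. Its fall of -0.58 on the log2 scale (SE 0.16, adjusted p = 0.0385) was the weakest call of the list, and passed without shNTC+Dox replicate 3 (-0.72, adjusted p = 0.00446) but not without any of the other 5 libraries (adjusted p of 0.0750 to 0.135).

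BAX, which perforates the outer mitochondrial membrane, was at 37.3, 34.0 and 45.3 CPM in shNTC+Dox and at 35.2, 35.4 and 35.8 CPM in shEHD1+Dox, with a log2 fold change of -0.13 (SE 0.11, adjusted p = 0.440). All 3 shEHD1+Dox libraries lay within the range of the controls, and without shNTC+Dox replicate 3 the log2 fold change was -0.01 (adjusted p = 0.963). PMAIP1 encodes NOXA, an antagonist of MCL1, and was at 51.2 to 54.3 CPM in the controls and 47.8 to 51.5 CPM in shEHD1+Dox (95% interval of the log2 fold change -0.24 to 0.07). The remaining 7 apoptosis-linked members did not pass either, with log2 fold changes from -0.48 for AEN, an exonuclease, to 0.44 for NINJ1, which ruptures the membrane of dying cells. Between them lay TP53INP1 (0.21), PHLDA3, an inhibitor of AKT (0.16), SUSD6 (-0.04), CYFIP2 (-0.29) and TRIAP1 (-0.31). TRIAP1 was lower in every shEHD1+Dox library (39.2 to 42.5 CPM against 45.3 to 61.3 CPM, adjusted p = 0.101). CYFIP2 had the widest interval of the list after GDF15, from -1.24 to 0.66, and its control libraries ran from 1.57 to 5.27 CPM with shNTC+Dox replicate 3 the lowest. Without that library its log2 fold change was -0.66 (adjusted p = 0.0462), while those of AEN, TRIAP1, PHLDA3, NINJ1 and TP53INP1 were -0.24, -0.16, 0.10, 0.29 and -0.01 and did not pass.

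The repair genes were divided. RRM2B, the p53-inducible small subunit of ribonucleotide reductase that supplies deoxynucleotides outside S phase, was at 41.9, 45.7 and 35.2 CPM in shNTC+Dox and at 56.0, 62.1 and 57.4 CPM in shEHD1+Dox. The groups did not overlap, and the rise was 0.51 on the log2 scale (SE 0.10, adjusted p = 0.0103). XPC and DDB2, the damage sensors of nucleotide excision repair, were lower in every shEHD1+Dox library. XPC was at 56.1 to 61.2 CPM against 50.3 to 51.2 CPM, and DDB2 at 15.7 to 20.6 CPM against 11.5 to 15.2 CPM. Their log2 fold changes of -0.19 and -0.37 did not pass (adjusted p = 0.0847 and 0.123), and did so without shNTC+Dox replicate 3 (-0.21 and -0.45, adjusted p = 0.0455 and 0.0462). Of the exon bases of XPC, 24.6% are shared with genes on the opposite strand. POLH, the polymerase that copies past ultraviolet lesions, had a log2 fold change of 0.10 (adjusted p = 0.493).

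Both sestrins on the list, which restrain mTORC1 when amino acids are short and limit oxidative damage, rose. SESN2 went from 13.0, 16.0 and 10.5 CPM to 34.4, 31.3 and 31.1 CPM, so that its lowest shEHD1+Dox library was far above the highest control. The log2 fold change was 1.29 (SE 0.15, adjusted p = 9.6e-04), the smallest adjusted p among the members and a 2.45-fold rise. SESN1 rose less, from 24.6, 25.5 and 26.2 CPM to 32.8, 34.3 and 33.2 CPM, with a log2 fold change of 0.40 (SE 0.08, adjusted p = 0.00890). The other metabolic targets did not pass and had narrow intervals. TIGAR, which diverts glucose into the pentose phosphate pathway, was at 19.99 to 21.5 CPM in the controls and 20.3 to 21.3 CPM after knockdown, with an interval of -0.18 to 0.21 around a log2 fold change of 0.02. The oxidoreductase TP53I3, at 14.97 to 17.7 CPM and 15.5 to 16.1 CPM, had an interval of -0.24 to 0.24, and FDXR, ferredoxin reductase, one of -0.27 to 0.23. Of the exon bases of TIGAR, 19.4% are shared with other genes.

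GDF15, a secreted cytokine of stressed cells, had the largest fold change of the list at a very low level. It had 7, 0 and 5 counts in the control libraries and 101, 36 and 64 after knockdown. No control library came near the lowest shEHD1+Dox library, and the log2 fold change was 3.86 (95% interval 2.27 to 5.45, adjusted p = 0.00793). The fitted value ran from 3.24 to 4.47 when single libraries were left out, and passed each time. ZMAT3, an RNA-binding zinc finger protein of p53-dependent growth control, was at 24.6, 28.2 and 29.2 CPM in shNTC+Dox and at 41.6, 46.4 and 42.1 CPM in shEHD1+Dox. The groups were wide apart for their spread, and the log2 fold change was 0.67 (SE 0.09, adjusted p = 0.00219). With 3 libraries in each group, an exact permutation test (two-sided) has a smallest p of 0.1. It is reached whenever the groups do not overlap, as for 39.3% of all genes tested. Each of the 11 called members reached 0.1, and so did CCNG1, SERTAD1, TRIAP1, XPC and DDB2, which did not pass.

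Levels of different genes were compared as RPKM, which is CPM divided by the length of the canonical transcript in kilobases. In shNTC+Dox the members spanned from 81.7 ± 12.3 RPKM for CCNG1 (SD, n = 3) to 0.14 ± 0.12 RPKM for GDF15. The most abundant after CCNG1 were BAX at 48.9 ± 7.33 RPKM and TRIAP1 at 44.3 ± 7.77 RPKM, which did not differ beyond their spread, followed by PMAIP1 at 27.6 ± 0.88 RPKM. CDKN1A stood at 6.01 ± 1.64 RPKM and MDM2 at 17.4 ± 2.56 RPKM. Of the 4 members that rose by at least 2-fold, GDF15, BBC3 (0.95 ± 0.33 RPKM) and PLK2 (0.98 ± 0.18 RPKM) were 3 of the 4 lowest detected members in the controls, the other being CYFIP2, and SESN2 was at 3.80 ± 0.80 RPKM. In shEHD1+Dox these 4 genes reached 1.97 ± 0.89, 2.103 ± 0.58, 3.38 ± 1.00 and 9.32 ± 0.54 RPKM, in the order GDF15, BBC3, PLK2 and SESN2.

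**Figure D4:**
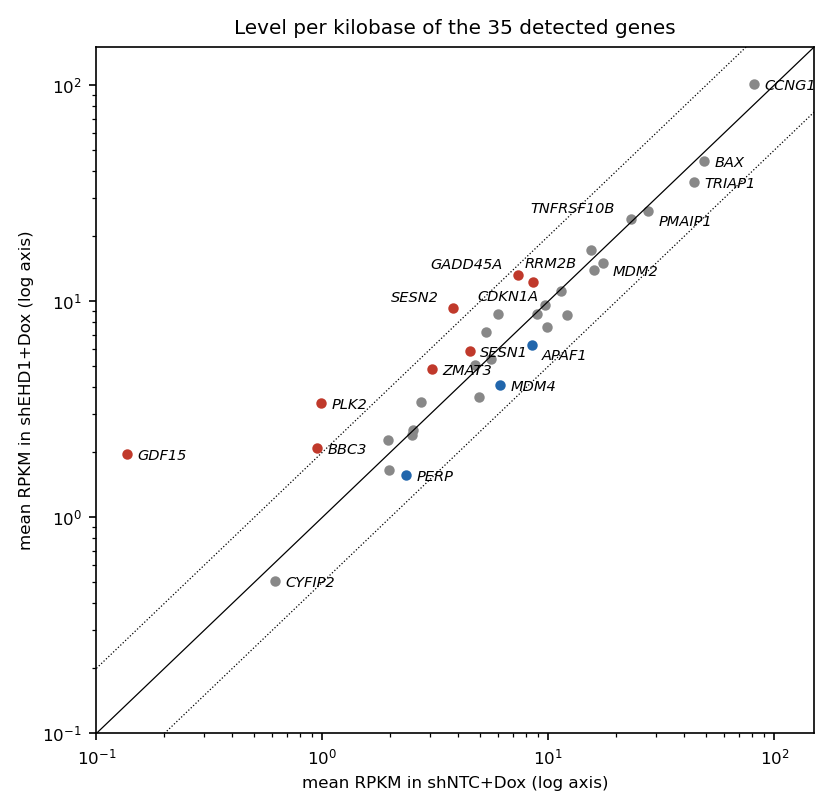
Mean RPKM in shEHD1+Dox (y axis) against shNTC+Dox (x axis), both on log axes, for the 35 detected members, with a solid line at equal levels and dotted lines at a 2-fold difference. Red genes rose and blue genes fell at an adjusted p under 0.05, and the 4 genes with a rise of at least 2-fold started at 3.80 RPKM or less.

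Over the p53 family and its upstream regulators, the median log2 fold change was 0.00. CDKN2A had 0 to 5 counts in a library and was not tested. Of the 24 regulators tested, 1 was higher (4.17%, against 8.59% of all genes) and 4 were lower (16.7%, against 8.75%). HIPK2, a kinase that activates p53 for apoptosis, rose from 12.7 ± 1.23 to 20.03 ± 0.96 CPM (log2 fold change 0.66, adjusted p = 0.00531). RCHY1, a ubiquitin ligase for p53, fell from 41.0 ± 0.60 to 28.5 ± 0.53 CPM (log2 fold change -0.53, adjusted p = 0.00191). DAXX, a histone chaperone that also binds MDM2, fell from 84.3 ± 5.07 to 59.7 ± 1.31 CPM (log2 fold change -0.50, adjusted p = 0.00264). The checkpoint kinases CHEK1 and CHEK2 fell by 0.46 and 0.26 on the log2 scale (adjusted p = 0.0296 and 0.0270). The number of calls was 3 without shEHD1+Dox replicate 1 or 3.

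A further 50 p53 targets were listed outside the members, and 40 of them had enough counts. Of these, 6 rose and 4 fell, with a median log2 fold change of 0.09. The rises are 15% of the 40, where 8.59% of all genes rose, and the falls 10.0%, near the 8.75% of all genes that fell. The lysosomal membrane protein DRAM1, which promotes autophagy, rose from 5.20 ± 0.48 to 8.68 ± 0.74 CPM (log2 fold change 0.74, adjusted p = 0.0105), and the lysosomal fucosidase FUCA1 from 25.4 ± 1.11 to 36.6 ± 2.54 CPM (0.53, adjusted p = 0.00440). PML, the organizer of nuclear bodies, and FBXW7, a ubiquitin ligase subunit, rose by 0.41 and 0.36 on the log2 scale (adjusted p = 0.0132 and 0.0277). The falls were led by KITLG, the ligand of KIT, which went from 4.598, 5.56 and 5.597 CPM to 1.05, 3.03 and 1.81 CPM (log2 fold change -1.43, SE 0.34, adjusted p = 0.0220). IER5, an immediate early gene, fell from 17.2 ± 0.62 to 9.40 ± 0.57 CPM (-0.87, adjusted p = 0.00134), and PANK1, a pantothenate kinase, from 17.3 ± 2.49 to 11.5 ± 0.97 CPM (-0.59, adjusted p = 0.0186). The number of calls dropped to 5 without shNTC+Dox replicate 1, and to 3 and 2 without shEHD1+Dox replicates 1 and 3, respectively, while the calls over all genes ran from 1299 to 3615 in these fits.

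Genes that p53 lowers indirectly, through p21 and the repressor complex DREAM, were read from a list of 15 mitotic and cell cycle genes, all of them tested. At an adjusted p under 0.05, 6 were higher (BUB1, CCNB1, CCNB2, CDC20, NEK2 and BIRC5) and 0 were lower, by edgeR and by DESeq2, where 8.59% of all genes were higher and 8.75% lower by edgeR. The 6 are 40.0% of the list. At an unadjusted p under 0.05, CCNA2 was higher too (log2 fold change 0.24), and MYBL2 and AURKB were lower (-0.28 and -0.29). The 6 called genes had log2 fold changes between 0.35 and 0.38, and the median of the list was 0.24. BUB1, a kinase of the spindle checkpoint, went from 145, 150 and 151 CPM to 204, 179 and 185 CPM (adjusted p = 0.0110). These calls depended on single libraries, since 10 genes passed without shNTC+Dox replicate 3, 4 without shEHD1+Dox replicate 2, 1 without shNTC+Dox replicate 1, shNTC+Dox replicate 2 or shEHD1+Dox replicate 3, and 0 when shEHD1+Dox replicate 1 was left out. By gene-set enrichment of the same comparison, the paper reports that G2-M checkpoint and E2F target genes were lower in shEHD1+Dox. Those sets were not read here, and this list of 15 was chosen separately.

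GDF15, SESN2, BBC3, PMAIP1 and TNFRSF10B are also known targets of ATF4 or its partner CHOP, and 12 genes of that response were read beside them. Of these, 2 were higher and 0 lower by edgeR, and 3 higher and 0 lower by DESeq2. At an unadjusted p under 0.05 in edgeR, 4 were higher, TRIB3 and ASNS besides the 2 called, and 0 were lower. The 2 called by edgeR are 16.7% of so short a list, where 8.59% of all genes were higher and 8.75% lower. DDIT4, an mTORC1 inhibitor that hypoxia, glucocorticoids and p53 induce as well, went from 27.7, 27.2 and 14.8 CPM to 63.5, 50.6 and 62.4 CPM (log2 fold change 1.34, SE 0.23, adjusted p = 0.0107). VLDLR, a lipoprotein receptor, rose from 5.27 ± 0.99 to 8.78 ± 1.05 CPM (log2 fold change 0.73, adjusted p = 0.0256), a call that was lost without shNTC+Dox replicate 2 or any of the shEHD1+Dox libraries. ATF4, DDIT3, TRIB3, CHAC1 and ASNS had log2 fold changes of -0.15, 0.38, 0.54, 0.19 and 0.33 and did not pass the adjusted threshold in edgeR. The part of ATF4 in the change of the members was not tested.

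**Figure D5:**
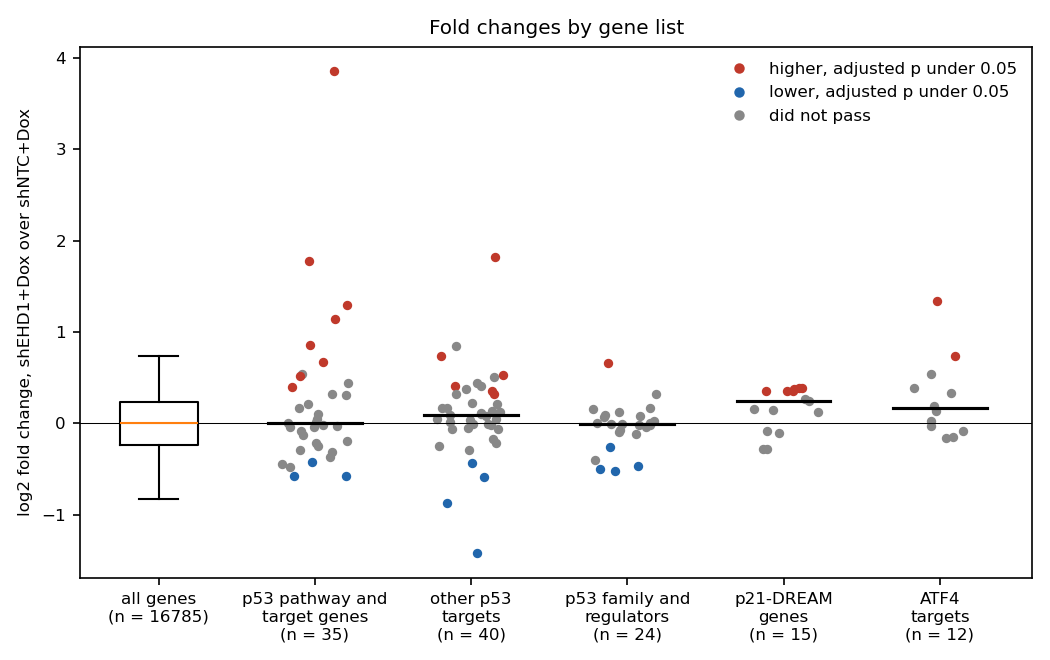
Log2 fold change (shEHD1+Dox over shNTC+Dox, y axis) of the tested genes of each list, 1 point a gene, with the list median as a black bar and, on the left, the quartiles of all 16785 genes with whiskers at the 5th and 95th percentiles. The members, the other p53 targets and the regulators hold red genes that rose and blue genes that fell, and the p21-DREAM and ATF4 lists hold red genes only among those that passed.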

How the data were processed

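RNA was read from 3 shNTC+Dox and 3 shEHD1+Dox libraries (TruSeq RNA kit, unstranded, paired ends). The authors deposited whole-number counts per gene on hg38, not normalized. Their methods name hisat2 with Ensembl annotations and StringTie, while the submitters' processing notes list STAR 2.7.3a and DESeq2. How StringTie output became counts, and how reads that match several genes were treated, is not given in the sources used here. By gene models, 15 of the 37 members share exon bases with another gene. Among the members past the threshold these are APAF1 (9.67%), SESN1 (4.99%) and BBC3 (2.51%). MDM2, which did not pass, shares 14.7%.

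Genes that reached 10 counts in 3 or more libraries (16785) were scaled by TMM and tested with edgeR 4.0.16 in R 4.3.3 (quasi-likelihood fit, robust, no covariate), with Benjamini-Hochberg adjustment over all of them. DESeq2 1.42.0, other scaling and filters, the replicate block and each library left out in turn were alternatives. The filter on counts was not applied anew when a library was left out. Both programs were checked on simulated data. The 95% intervals are those of the edgeR fit and, like the limit for a count of 0, rest on reads without molecular identifiers. Between libraries, a chi-square per degree of freedom of 5.56 or more showed none to be a copy of another. The biological coefficient of variation was 15.0%.

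Gene positions, transcript lengths and sequence came from GENCODE release 44 and its GRCh38 (hg38) genome, where all 37 identifiers were found. Members and lists were chosen with earlier results of these data known. Every member is accounted for. Members past an adjusted p of 0.05, CDKN1A, MDM2, GDF15, BAX and BBC3 are given in full, and of each other list up to 8 genes past it, with CDKN2A and EHD1. Some listed genes outside the members are not reported here. DCN, CD99, NR0B1, STEAP1, NPY1R, CCNA2, MYBL2, AURKB, TRIB3, CHAC1, ASNS, DDIT3 and ATF4 were named outside this rule, after their values were seen.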

Additional observations from a re-analysis of the deposited data

How the results depend on the processing

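Of the 11 members past an adjusted p of 0.05, 11 remained with DESeq2's size factors, 10 without a filter on low counts (PERP lost), 10 with at least 10 counts in every library (GDF15 not testable) and 9 with the replicate block (BBC3 and PERP lost, adjusted p = 0.0864 and 0.0707). The Wald test of DESeq2 kept all 11 and added CDKN1A and CCNG1. With single libraries left out, 8 to 14 members passed. The replicate numbers gave no sign of a pairing of the libraries. Deviations from the group means correlated at 0.07, -0.06 and -0.04 for numbers 1, 2 and 3, and at -0.08 to 0.11 for unlike numbers. This does not show that the cultures were unpaired. The upstream regulators past the threshold numbered 3 with the replicate block and 3 to 5 with a library left out. Leaving out libraries gave 2 to 10 other p53 targets, 0 to 10 p21-DREAM genes and 1 to 3 ATF4 targets. The log2 fold change of EHD1 stayed between -1.88 and -1.68. For members near 0 the sign was not stable. TP53I3 was at 0.00 in the reported fit and below 0 with DESeq2's size factors (-0.0020), with 10 counts in every library (-0.0001) and by DESeq2 (-0.0007). With a library left out, the log2 fold change ran from -0.1058 to 0.0169 for BTG2, -0.0859 to 0.0469 for FDXR, -0.157 to 0.0727 for PPM1D, -0.1461 to 0.0488 for SUSD6, -0.0073 to 0.0433 for TIGAR, -0.0299 to 0.119 for TNFRSF10B, -0.0405 to 0.0856 for TP53I3 and -0.0103 to 0.368 for TP53INP1. None of these 8 genes passed the threshold in any of these fits. The cause of these shifts was not tested.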

Other observations

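Several members had values in shNTC+Dox replicate 3 that lay apart from those of the other 2 controls. MDM2 was at 152 CPM in shNTC+Dox replicate 3 and at 119 and 120 CPM in replicates 1 and 2, AEN at 48.7 CPM against 33.4 and 29.0 CPM, and TRIAP1 at 61.3 CPM against 45.3 and 46.2 CPM. In the same library TP53INP1 was at 7.25 CPM against 13.2 and 12.4 CPM, CYFIP2 at 1.57 CPM against 5.09 and 5.27 CPM, and CDKN1A at 9.0 CPM against 15.8 and 13.3 CPM. These members therefore moved in opposite directions within the control group, and the median deviation of the 35 members in that library from their mean over all libraries was -0.16 on the log2 CPM scale, against 0.00 in the other two controls.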
